A study of Oryza sativa with 8 samples.

Results

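Plasma membrane intrinsic proteins (PIPs) are aquaporins, channels that let water cross the plasma membrane. In roots they carry much of the water that moves from cell to cell, beside the path through cell walls. Plant PIPs fall into the PIP1 and PIP2 subgroups. In oocyte assays of maize proteins, PIP2 channels move water on their own, whereas PIP1 proteins mostly need a PIP2 partner to reach the membrane. Other aquaporin subfamilies are the tonoplast intrinsic proteins (TIPs) of the vacuolar membrane and the NOD26-like intrinsic proteins (NIPs), some of which carry silicon or other small solutes.

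The transcripts of 9 PIP genes of rice were followed here, out of 37869 genes in the deposited table. The 9 genes were taken as a list of RAP-DB locus identifiers. The deposited descriptions call 7 of the 9 an aquaporin or an intrinsic protein. They name Os04g0559700 and Os02g0823100 after PIP1 proteins (Aquaporin PIP1.1 and maize ZmPIP1-5), and Os02g0629200 and Os07g0448100 after PIP2 proteins (barley HvPIP2;1 and maize ZmPIP2-6). Os02g0666200 and Os07g0448800 carry the description Aquaporin and Os04g0521100 that of the major intrinsic protein family, with no subgroup. Os07g0448200 is described only by a cDNA clone, and Os04g0233400 only as similar to an Arabidopsis fragment and a cDNA clone, so for these 2 genes the files do not bear on the label PIP.

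RNA was sequenced from roots of 2-week-old seedlings of the cultivar Ilmi under normal growth. ROX plants overexpress OsERF48, an ERF transcription factor gene, from the root-specific RCc3 promoter and came from the transgenic lines 2 and 6, which the study describes as homozygous and single-copy. Nontransgenic (NT) Ilmi plants carry no construct. There were 4 ROX and 4 NT libraries. The study describes biological replicates with technical replicates of each, so p-values may measure technical spread.

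The column names tell ROX from NT but not the line, and they come in 2 styles, called Root and Set libraries after the word in the names, each with 2 ROX and 2 NT libraries. The Set names mention no promoter, cultivar or tissue, and the Set libraries were read as ROX and NT roots because the study lists no other samples. The deposited data also hold 4 columns that match no listed sample, so this reading is not certain. Across genes, log2(FPKM + 1) correlated at 0.962 to 0.997 between libraries of the same set and at 0.828 to 0.888 between libraries of different sets. Depth, estimated from the steps in low FPKM values (fragments scaled to transcript length and to the mapped total of the library), was 37600000 to 43600000 fragments for Root and 46800000 to 50600000 for Set libraries. The variance between paired libraries of one genotype was a median of 1.17 to 1.86 times that of sampling noise in Root and 3.98 to 4.93 times in Set. OsERF48 (Os08g0408500) stood at 464 and 470 FPKM in the Root ROX libraries, against 86.6 and 86.2 FPKM in the Root NT libraries, and at 816 and 612 FPKM in the Set ROX libraries, against 65.9 and 59.3 FPKM in the Set NT libraries, so every library followed its label.

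The first question was whether the PIP genes differed between ROX and NT roots. Within the Root libraries, 8 of the 9 genes rose in ROX roots, as did 20.8% of all genes tested, and 1, Os04g0233400, fell, as did 32%. Within the Set libraries all 9 were higher in both ROX libraries than in both NT libraries, as were 20.4% of all genes, but none passed the test across all genes. The size of the rise in the Root libraries ran from 1.24-fold for Os02g0666200 to 2.26-fold for Os02g0823100. Differences are given as ROX minus NT on the log2(FPKM + 1) scale, which understates the change of low genes, and calls rest on limma with Benjamini-Hochberg adjusted p-values under 0.05 over all genes tested.

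**Figure D1:**
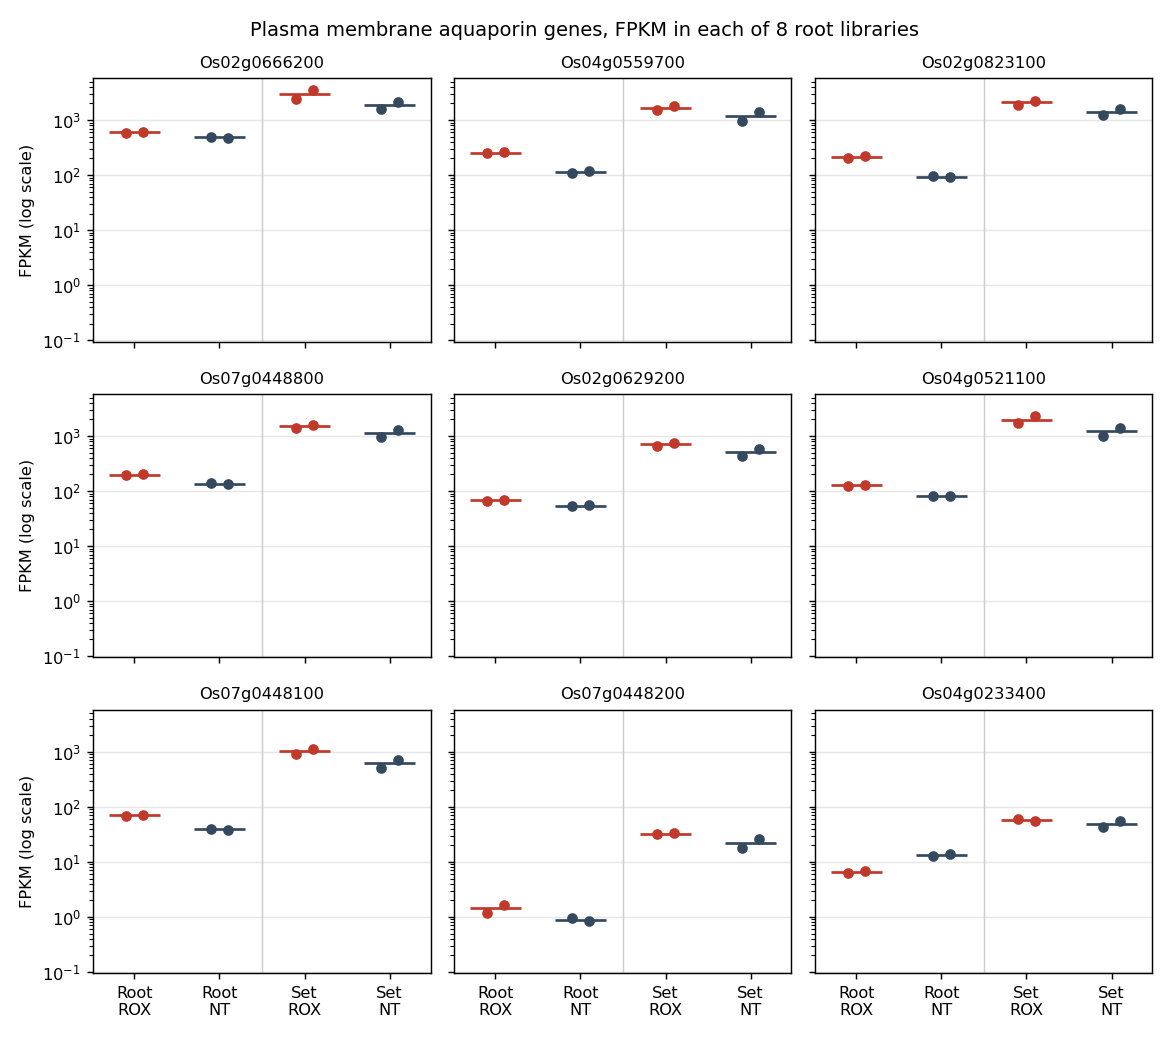
FPKM (log scale) of the 9 genes in the 8 libraries, with ROX in red and NT in dark blue; each point is a library and each line the mean of 2 libraries. The ROX points lie above the NT points of the same library set in every panel except the Root side of Os04g0233400, and the Set points lie above the Root points of the same genotype throughout.

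The 2 genes described as PIP1 had the largest rises in the Root libraries. Os04g0559700 (chromosome 4, 28046582 to 28048410, IRGSP-1.0) had 250 and 262 FPKM in the Root ROX libraries, against 110 and 119 FPKM in the Root NT libraries. It had 1548 and 1806 FPKM in the Set ROX libraries, against 973 and 1395 FPKM in the Set NT libraries. The ROX and NT values did not overlap in either set. The difference was 1.16 (SE 0.046, adjusted p = 2.39e-06, limma) in the Root libraries and 0.52 (SE 0.22, adjusted p = 0.355) in the Set libraries.

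Os02g0823100 (chromosome 2, 35349673 to 35351221) had 206 and 222 FPKM in the Root ROX libraries, against 95.4 and 92.1 FPKM in the Root NT libraries. Its Set values were 1905 and 2265 FPKM in ROX, against 1237 and 1566 FPKM in NT. Again no ROX value fell among the NT values of its set. The difference was 1.18 (SE 0.046, adjusted p = 2.20e-06, limma) in the Root libraries and 0.58 (SE 0.20, adjusted p = 0.267) in the Set libraries. On the log2(FPKM + 1) scale, Os04g0559700 and Os02g0823100 were the 2 members to reach the study's own limit. That limit is a 2-fold change with an unadjusted p under 0.05. The 2 genes stood at 2.23-fold and 2.26-fold in the Root libraries. Os04g0233400 fell short there at -0.94, but its FPKM ratio was 0.484 and a pseudocount of 0.1 gave -1.04. Of all genes tested in the Root libraries, 4.23% reached the limit in the upward direction. The downward share is not given here.

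The 2 genes described as PIP2 lay lower in level. Os07g0448100 (chromosome 7, 15358960 to 15360391) had 67.4 and 72.7 FPKM in the Root ROX libraries, against 39.7 and 38.5 FPKM in the Root NT libraries. In the Set libraries it had 914 and 1143 FPKM in ROX, against 520 and 723 FPKM in NT. The groups were apart in both sets and the difference was of much the same size, 0.83 (SE 0.049, adjusted p = 1.59e-05, limma) in the Root and 0.74 (SE 0.21, adjusted p = 0.213) in the Set libraries.

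Os02g0629200 (chromosome 2, 25162876 to 25166544) had 65.1 and 70.0 FPKM in the Root ROX libraries, against 52.7 and 55.2 FPKM in the Root NT libraries. The Set libraries gave 653 and 748 FPKM in ROX, against 432 and 574 FPKM in NT. The Root difference of 0.32 (SE 0.049, adjusted p = 0.00162, limma) was a 1.25-fold rise, and the Set difference was 0.49 (SE 0.18, adjusted p = 0.288). Taken as sums, the PIP1-described pair stood 2.26 times as high in ROX as in NT in the Root libraries and 1.46 times in the Set libraries, and the PIP2-described pair 1.48 and 1.54 times. Members whose descriptions give no subgroup are in neither sum, so these sums do not compare the whole subgroups. Their Root and Set ratios were 1.24 and 1.57 for Os02g0666200, 1.45 and 1.33 for Os07g0448800, and 1.56 and 1.63 for Os04g0521100. Those of the low genes were 1.61 and 1.46 for Os07g0448200, and 0.484 and 1.19 for Os04g0233400.

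Os02g0666200 (chromosome 2, 27044341 to 27047381), described as an aquaporin, was the most abundant of the 9 in every library. It had 585 and 611 FPKM in the Root ROX libraries, against 492 and 473 FPKM in the Root NT libraries. The Set values were 2417 and 3459 FPKM in ROX, against 1569 and 2164 FPKM in NT. The Set ROX libraries were the least alike of any pair of this gene, so that the larger Set difference of 0.65 (SE 0.27, adjusted p = 0.345, limma) had a wide 95% interval, -0.05 to 1.35. The Root difference was 0.31 (SE 0.037, adjusted p = 0.000524).

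Os07g0448800 (chromosome 7, 15406442 to 15409748), also described as an aquaporin, had 193 and 202 FPKM in the Root ROX libraries, against 138 and 134 FPKM in the Root NT libraries. Its Set values were 1409 and 1583 FPKM in ROX, against 947 and 1306 FPKM in NT. It rose by 0.54 (SE 0.039, adjusted p = 4.30e-05, limma) in the Root libraries, and differed by 0.42 (SE 0.20, adjusted p = 0.405) in the Set libraries.

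Os04g0521100 (chromosome 4, 26099273 to 26101764), of the major intrinsic protein family, had 123 and 129 FPKM in the Root ROX libraries, against 81.4 and 79.7 FPKM in the Root NT libraries. Its Set values reached 1687 and 2269 FPKM in ROX, against 1014 and 1415 FPKM in NT. It was thus among the middle members in Root libraries and close to the top in Set libraries. The difference was 0.64 (SE 0.040, adjusted p = 2.08e-05, limma) in the Root and 0.71 (SE 0.25, adjusted p = 0.272) in the Set libraries.

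The 2 genes whose descriptions name no aquaporin were the least abundant. Os07g0448200 (chromosome 7, 15369152 to 15370242) had 1.20 and 1.66 FPKM in the Root ROX libraries, against 0.941 and 0.831 FPKM in the Root NT libraries. These Root values rest on an estimated 33 and 54 fragments in ROX and 26 and 26 in NT. Set libraries gave 31.6 and 33.4 FPKM in ROX, against 18.1 and 26.3 FPKM in NT. The Root difference of 0.36 (SE 0.115, adjusted p = 0.0348, limma) lost its call without Root ROX replicate 2 (0.22, adjusted p = 0.161), without Root NT replicate 2 (0.32, adjusted p = 0.0891) and with no filter on low values (adjusted p = 0.0587), over a range of adjusted p of 0.0155 to 0.161 across its alternatives. The Set difference was 0.55 (SE 0.18, adjusted p = 0.251).

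Os04g0233400 (chromosome 4, 8948360 to 8949943) went the other way in the Root libraries, with 6.21 and 6.75 FPKM in ROX, against 12.9 and 13.9 FPKM in NT. In the Set libraries it had 61.4 and 55.9 FPKM in ROX, against 43.6 and 54.7 FPKM in NT. ROX values lay below all NT values in the Root libraries and above them, by a small margin, in the Set libraries. It fell by 0.94 (SE 0.070, adjusted p = 4.79e-05, limma) in the Root libraries and differed by 0.26 (SE 0.13, adjusted p = 0.428) in the Set libraries.

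The counts in the Root libraries stand beside a high background over the 25090 genes tested. Scaling by median ratios turned the balance of rises and falls, with 53.5% of the called genes higher in ROX in place of 39.4%, and left the median difference of the 9 members at 0.62 with 8 of them positive. Every ROX library was above every NT library for 8 of the 9 members and for 30% of all genes, and below for 1 member and 47.8% of all genes. The median difference of the 9 members was 0.54, against -0.08 over all genes tested, of which 39.9% were positive. With a spread shared by the 2 sets in place of the Root spread, Os02g0666200, Os02g0629200 and Os07g0448200 were not called in the Root libraries (adjusted p = 0.256, 0.0981 and 0.135, limma).

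In the Set libraries 0 of the 9 members were called, against 0.807% of all genes upward. At an unadjusted p under 0.05, limma gave 5 of the 9 as higher, namely Os02g0823100, Os02g0629200, Os04g0521100, Os07g0448100 and Os07g0448200, against 7.18% of all genes as higher and 8.66% as lower. ROX and NT values did not overlap for 9 of the 9 members, all with ROX above, as was so for 20.4% of all genes. The median difference of the members was 0.55, against -0.02 over all genes, of which 44.5% were positive. The Set pairs differed more from each other than the Root pairs, and the 95% intervals of the Set differences were wide: that of Os07g0448100 ran from 0.19 to 1.28 and that of Os07g0448800 from -0.10 to 0.95.

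**Figure D2:**
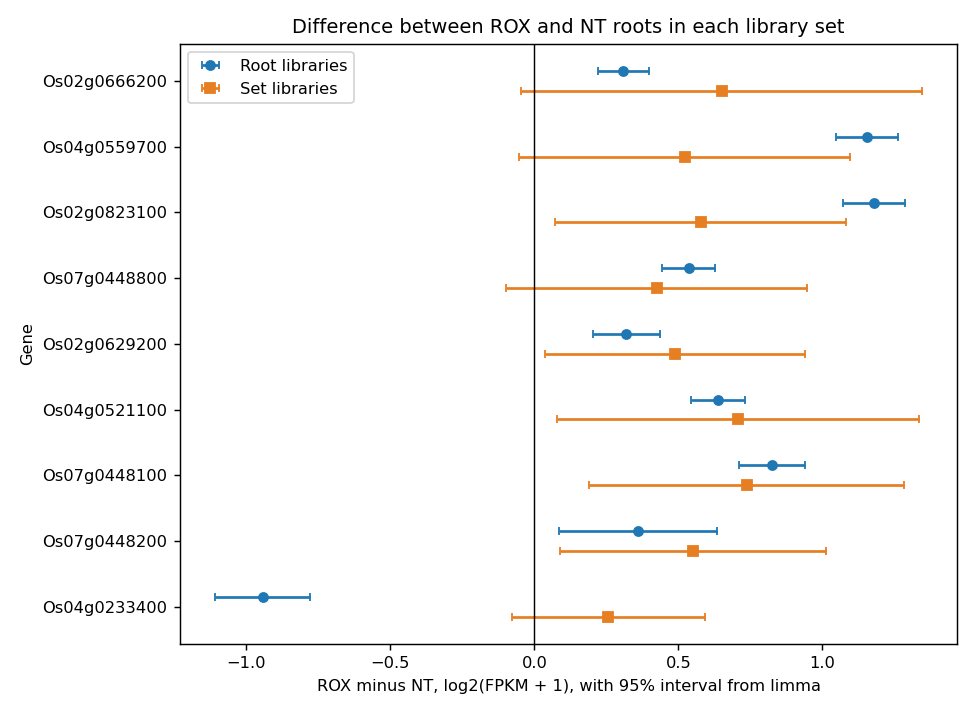
Difference between ROX and NT roots on the log2(FPKM + 1) scale (x axis) for each gene (y axis), with limma's 95% interval, in the Root libraries (circles) and the Set libraries (squares), 2 ROX and 2 NT libraries each. The Root intervals are narrow and lie above 0 for 8 genes and below 0 for Os04g0233400; the Set intervals are wide, with every point above 0.

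Over all 8 libraries together none of the 9 members was called, also not at an unadjusted p under 0.05, where 2.53% of all genes were higher and 2.95% lower. At an adjusted p under 0.05, 0.172% of all genes were called in either direction. The differences ran from -0.34 for Os04g0233400 to 0.88 for Os02g0823100 with standard errors of 0.80 to 1.43. The two-sided exact permutation test over the 8 libraries gave p = 0.514 for 8 members and p = 0.657 for Os04g0233400, where the smallest p possible is 0.0286. Its regroupings take no account of the library set, so the shift between the sets fixes these values and they do not bear on ROX against NT within a set. For 0 of the 9 members did every ROX library exceed every NT library, against 2.07% of all genes, because the Set NT values of each gene were above its Root ROX values. With the library set as a covariate, Os04g0559700, Os02g0823100, Os07g0448800, Os04g0521100 and Os07g0448100 were higher in ROX roots at adjusted p-values of 0.0134 to 0.0420 (limma), against 2.74% of all genes.

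Whether the ROX-minus-NT difference itself differed between the Set and the Root libraries was tested with an interaction term. Os04g0233400 was the 1 member called, with a Set-minus-Root difference of 1.20 (SE 0.157, adjusted p = 0.00265, limma), and 10.8% of all genes were called in that direction. The 2 PIP1-described genes had smaller differences in the Set libraries, by -0.63 for Os04g0559700 (adjusted p = 0.0934, 95% interval -1.18 to -0.09) and by -0.60 for Os02g0823100 (adjusted p = 0.0568, 95% interval -1.03 to -0.17). Neither passed the test across all genes, where 10.7% were called in that direction. For Os02g0823100 the call appeared under quantile normalization (adjusted p = 0.0126), without Set ROX replicate 2 (adjusted p = 0.0314) and without Set NT replicate 1 (adjusted p = 0.0192), over a range of 0.0126 to 0.175 across its alternatives. For Os04g0559700 it appeared without Set NT replicate 1 (adjusted p = 0.00999), over a range of 0.00999 to 0.244. The other 6 members had adjusted p-values of at least 0.426.

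The second question was how the level of the PIP genes varied between libraries. All 9 genes stood higher in the Set than in the Root libraries of the same genotype. The ratio of mean FPKM, Set over Root, ran from 4.91 for Os02g0666200 to 22.7 for Os07g0448200 in ROX roots, and from 3.67 for Os04g0233400 to 25.1 for Os07g0448200 in NT roots. On the log2(FPKM + 1) scale 9 of the 9 members were at least 4-fold higher in the Set libraries in ROX, against 5% of all genes, and 7 of the 9 in NT, against 3.71% of all genes. The median shift of the members was 3.28 in ROX and 3.34 in NT, against 0.07 and 0.06 over all genes. No test was made of this shift, which was looked at after the values had been seen.

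Markers of tissues and cell types, those of the root among them, moved between the sets as well. The summed FPKM of 3 cellulose synthase genes of the secondary wall (CESA4, CESA7 and CESA9) was 14.1 times as high in Set as in Root libraries in ROX and 10.2 times in NT. The sum of 5 green leaf genes (Rubisco small subunit and chlorophyll a/b binding proteins) was 0.408 times as high in ROX and 0.415 times in NT, although 1 of the 5, Os09g0346500, was higher in Set, at 3.83 and 2.82 FPKM in Set ROX and 7.79 and 6.64 FPKM in Set NT, beside 1.56 and 1.42 FPKM in Root ROX and 3.31 and 3.70 FPKM in Root NT. The 3 root genes went different ways. RCc3 (Os02g0662000) had a mean of 1561 FPKM in Set ROX and 1422 FPKM in Set NT, beside 157 FPKM in Root ROX and 314 FPKM in Root NT. Lsi1 (Os02g0745100) was lower in Set, at a mean of 534 FPKM in ROX and 572 FPKM in NT, beside 1021 FPKM in Root ROX and 1296 FPKM in Root NT, and so was Lsi2 (Os03g0107300), at 232 and 220 FPKM, beside 314 FPKM in Root ROX and 380 FPKM in Root NT. None of these markers was at 0 in any library. Their part in the level of the PIP genes was not tested, and whatever else set the Root and the Set libraries apart cannot be told apart from it.

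The same markers were also compared between ROX and NT. The 3 root genes summed to 1452 and 1531 FPKM in Root ROX, against 2010 and 1971 FPKM in Root NT, and to 2321 and 2334 FPKM in Set ROX, against 2091 and 2337 FPKM in Set NT, where the ratio of the mean sums was 1.05. The 5 green leaf genes summed to 13.95 and 13.95 FPKM in Root ROX, against 30.5 and 28.9 FPKM in Root NT, and to 6.14 and 5.25 FPKM in Set ROX, against 13.8 and 10.8 FPKM in Set NT. The secondary wall genes summed to 6.05 and 5.71 FPKM in Root ROX, against 10.4 and 10.9 FPKM in Root NT, and to 80.7 and 85.4 FPKM in Set ROX, against 96.2 and 120 FPKM in Set NT. The green leaf and secondary wall sums were thus lower in ROX in both sets and the root sum in the Root libraries, and the part of the markers in the PIP result was not tested. In the Set libraries 4 of the 5 green leaf genes were lower in ROX. The exception, Os12g0292400, was near 0 there, at 0.188 and 0.0915 FPKM in ROX, against 0.202 and 0.0712 FPKM in NT. In whole roots, a lower share of cells of a type and less RNA per cell cannot be told apart.

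Summed over the 9 genes, the PIP transcripts came to 1497 and 1577 FPKM in the Root ROX libraries, against 1024 and 1006 FPKM in the Root NT libraries. The sums were 10626 and 13363 FPKM in the Set ROX libraries, against 6753 and 9223 FPKM in the Set NT libraries. The ratio of the mean sums, ROX over NT, was 1.514 for Root and 1.501 for Set libraries, although the sums themselves were 7.80 times as high in Set as in Root libraries in ROX and 7.87 times in NT. As a share of all FPKM, the 9 genes made up 0.188% and 0.197% in Root ROX, against 0.126% and 0.124% in Root NT, and 1.38% and 1.64% in Set ROX, against 0.873% and 1.18% in Set NT. None of the 9 was among the 100 most abundant genes of any Root library, whereas 6 and 7 were in the Set ROX libraries and 5 and 6 in the Set NT libraries. The top member, Os02g0666200, ranked 11 and 9 among all genes in Set ROX, against 21 and 11 in Set NT.

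**Figure D3:**
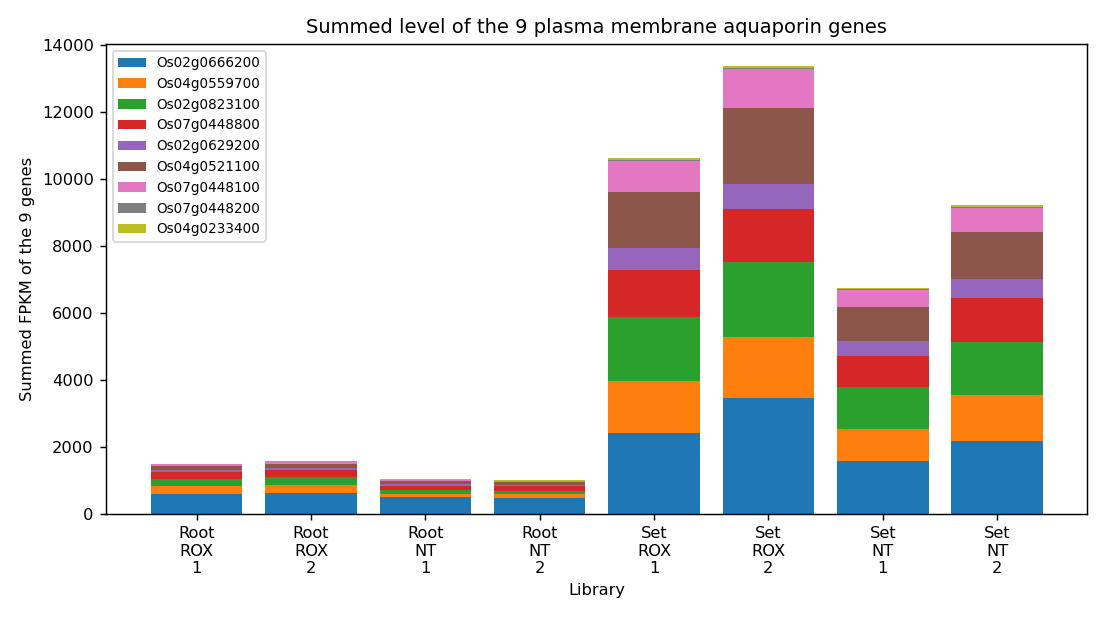
Summed FPKM of the 9 genes (y axis, from 0) in each of the 8 libraries (x axis), split by gene. ROX sums exceed NT sums within each library set, and the Set sums of 6753 to 13363 FPKM stand well above the Root sums of 1006 to 1577 FPKM.

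The most and the 2 least abundant members kept their places, and the middle of the order changed between the sets. Os02g0666200 was first in all 8 libraries, with 22.7% to 48.1% of the sum. Os04g0559700, Os02g0823100, Os07g0448800 and Os04g0521100 shared the second to the fifth place. Os04g0521100 had rank 5 in all 4 Root libraries and rank 2 or 3 in all 4 Set libraries, whereas Os07g0448800 had rank 4 in both Root ROX libraries, rank 2 in both Root NT libraries and rank 5 in all 4 Set libraries. Their neighbours in that order often lay within the spread of a pair. For example, Os04g0559700 at 250 and 262 FPKM and Os02g0823100 at 206 and 222 FPKM in Root ROX were apart, whereas Os04g0559700 at 973 and 1395 FPKM and Os07g0448800 at 947 and 1306 FPKM in Set NT overlapped. Os02g0629200 and Os07g0448100 took the sixth and seventh place. Os04g0233400 was always eighth, with 0.415% to 1.38% of the sum, and Os07g0448200 always ninth, with 0.0799% to 0.297%.

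Most members were carried by 1 transcript model. In Os02g0666200 the model of 1136 bases held 90.7% to 95.6% of the gene's FPKM in every library, and that of 1204 bases the rest. In Os02g0629200 the models of 615 and 1214 bases held 43.5% to 50.4% and 49.6% to 56.5%. The second models of Os04g0233400 and Os07g0448800 were near 0 in every library, and the other 5 genes have 1 model.

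Annotation limits what some of these values can say. Gene models of other loci overlap 7 of the 9 members, all but Os02g0823100 and Os07g0448800, and whether counting used strand is not given in the sources used here, so the values of members and partners are uncertain where they share reads. The partner Os04g0559750 covers 1478 bases shared with Os04g0559700 and had 352 and 376 FPKM in Root ROX, against 168 and 159 FPKM in Root NT, a ratio of 2.23 beside 2.24 for the member. The partner Os04g0233851 of Os04g0233400 had 8.74 and 11.1 FPKM in Root ROX, against 21.1 and 21.9 FPKM in Root NT, a ratio of 0.461 beside 0.484. The partner Os04g0521001 of Os04g0521100 was near 0 in every library.

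Os07g0448100, Os07g0448200 and Os07g0448800 lie on chromosome 7 within 50789 bases, together with Os07g0448400, which is described as similar to Aquaporin PIP2-5 and is not among the 9. Os07g0448400 had 33.6 and 34.4 FPKM in Root ROX, against 12.9 and 10.5 FPKM in Root NT, and 558 and 671 FPKM in Set ROX, against 277 and 407 FPKM in Set NT. It rose by 1.47 (SE 0.087, adjusted p = 1.62e-05, limma) in the Root libraries and differed by 0.86 (SE 0.22, adjusted p = 0.170) in the Set libraries. These 4 genes had higher values in ROX in both sets, as did 8 of the 9 members, so this was not particular to the stretch on chromosome 7. The share of all genes higher in both sets was not computed. The other gene outside the 9 that is described as a plasma membrane intrinsic protein, Os09g0541000, named here after its values were seen, had 1.25 and 1.38 FPKM in Root ROX, against 1.20 and 1.21 FPKM in Root NT (difference 0.07, adjusted p = 0.519, limma). In Set it was lower in ROX, at 0.416 and 0.0975 FPKM, against 0.632 and 0.415 FPKM in NT, below the limit for testing.

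Beyond the 9, the deposited descriptions name 24 other aquaporin genes, of which 17 were expressed enough to test in all 8 libraries and 16 in each set. Within the Root libraries 7 of the 16 rose and 5 fell, against 20.8% and 32% of all genes, with a median difference of 0.18, and within the Set libraries 0 of the 16 passed, against 0.807% of all genes upward. At an unadjusted p under 0.05 the Set libraries gave 4 as higher (Os02g0232900, Os04g0550900, Os06g0228200 and Os07g0448400) and 1 as lower (Os05g0205000) in limma, against 7.18% and 8.66% of all genes. In all 8 libraries 0 of the 17 were called.

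Among the NIP genes, Os02g0232900, described as similar to ZmNIP1-1, had 61.0 and 63.2 FPKM in Root ROX, against 16.0 and 16.2 FPKM in Root NT, but 8.14 and 8.43 FPKM in Set ROX, against 5.60 and 6.08 FPKM in Set NT. It rose 3.69-fold in the Root libraries (adjusted p = 2.35e-07, limma). Os05g0205000 and Os05g0205050, described as NIP1 genes, rose by 0.56 and 0.78 in the Root libraries. Os02g0745100 (Lsi1, a silicon influx transporter) had 993 and 1049 FPKM in Root ROX, against 1304 and 1289 FPKM in Root NT, and fell by 0.34 (adjusted p = 0.000287). Os08g0152000, described as NIP3-2, fell by 0.62, at 0.824 and 0.944 FPKM in Root ROX, against 1.75 and 2.02 FPKM in Root NT. Os12g0204100, described as similar to a major intrinsic protein, fell by 0.43. It had 0.571 and 0.375 FPKM in Root ROX, against 1.07 and 0.895 FPKM in Root NT. Both genes lay near the limit of a mean of 0.5 FPKM for testing. Os06g0228200, described as a NIP III silicon transporter, was higher at an unadjusted p under 0.05 in the Set libraries, by 0.45 (adjusted p = 0.165).

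Among the TIP genes, Os02g0658100, described as similar to tonoplast intrinsic protein2, had 114 and 120 FPKM in Root ROX, against 24.7 and 24.1 FPKM in Root NT, a 4.65-fold rise (adjusted p = 1.21e-07, limma). In the Set libraries it had 1075 and 1279 FPKM in ROX, against 588 and 1019 FPKM in NT. Os05g0231700 and Os04g0550900 rose by 0.83 and 0.54 in the Root libraries, and Os06g0336200 and Os03g0146100 fell by 0.64 and 0.38. Interaction tests called 5 of the 17 others as lower in Set than in Root, namely Os02g0232900, Os02g0658100, Os05g0205000, Os05g0205050 and Os05g0231700, and 0 as higher (1 at an unadjusted p under 0.05, Os03g0146100), against 10.7% of all genes lower and 10.8% higher.

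**Figure D4:**
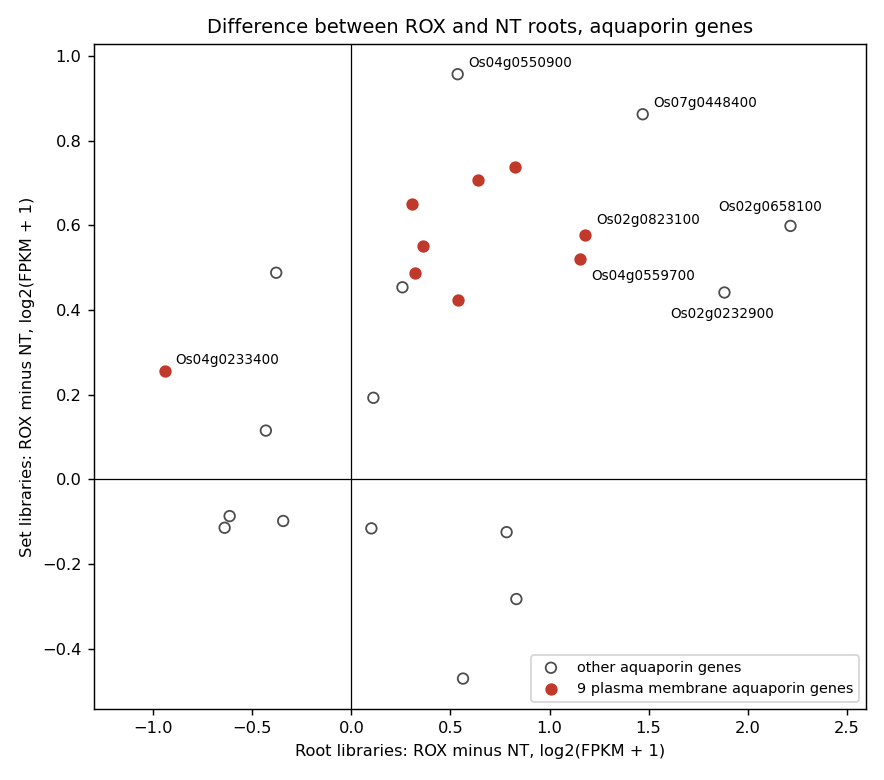
Difference between ROX and NT roots on the log2(FPKM + 1) scale in the Root libraries (x axis) and the Set libraries (y axis) for the 9 genes (filled) and 15 other aquaporin genes tested in both sets (open). Of the 9 genes 8 lie above 0 on both axes, as do 6 of the 15 others, and 3 of the others lie below 0 on both.

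The genes whose log2(FPKM + 1) profile over the 8 libraries was most like the mean profile of the 9 (Pearson's r, given as a description, since the points share 2 library sets and little more separates them) were Os02g0629266 at 0.9996, Os03g0751200 at 0.9994 and Os04g0550900 at 0.9992. Os02g0629266 is a hypothetical gene that overlaps Os02g0629200. Os03g0751200, also hypothetical, had 4.15 and 4.76 FPKM in Root ROX, against 3.05 and 2.67 FPKM in Root NT, and 97.9 and 119 FPKM in Set ROX, against 56.7 and 73.6 FPKM in Set NT. Os04g0550900, described as aquaporin TIP2-3, had 1.68 and 2.51 FPKM in Root ROX, against 1.25 and 0.987 FPKM in Root NT, and 88.7 and 118 FPKM in Set ROX, against 42.3 and 64.2 FPKM in Set NT. Of the 9 members themselves, 8 had an r of 0.986 to 1 (rounded) with the mean profile, and Os04g0233400 had 0.931. Each member is part of that mean and all 9 share the shift between the sets, so high values were built in.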

How the data were processed

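Root RNA of 2-week-old plants was sequenced from strand-specific libraries by a service provider. FPKM tables for 37869 genes and 44539 transcripts were deposited by the authors, with transcript lengths in bases, on IRGSP-1.0 per the submitters' processing notes; the aligner and quantifier are not given in the sources used here. The tables also hold 4 columns that match no sample and were not used. Starts in the table count from 0 and were raised by 1.

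log2(FPKM + 1) was fitted with limma 3.58.1 (R 4.3.3, moderated variances with a trend) to genes with a mean of at least 0.5 FPKM, in all 8 libraries, within the Root and Set libraries, and with 4 group means for the interaction, with Benjamini-Hochberg adjustment over all genes. Genes were called at an adjusted p under 0.05, or at 2-fold with an unadjusted p under 0.05. The fits were also run on simulated data with the same spread setting for all libraries and independent replicates. The Set pairs here varied more than the Root pairs and replicates may be technical, so that run does not bear on the p-values. Named are the 9 members, OsERF48, other aquaporins passing a call rule and the 3 most alike profiles. Members, marker and gene lists were chosen with earlier results of these data known. Alternatives were a pseudocount of 0.1, no filter, a minimum mean FPKM of 5, quantile and median-ratio scaling, no variance trend, sums over transcripts, a library set covariate, averaged pairs, a shared spread, a replicate block and leaving out each library. The reference tables pair none of the members with a sequence, so sequence features were not analysed here. Python 3.11.15 drew the plots. Depth was estimated from FPKM steps of which 91.7% to 93.8% lay within 0.1 fragments of a whole number.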

Additional observations from a re-analysis of the deposited data

Results flagged for a closer look

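The difference between ROX and NT roots in Os04g0233400 was not the same in the Set and the Root libraries by the interaction test, by 1.20 on the log2(FPKM + 1) scale (SE 0.157, adjusted p = 0.00265, limma). It stood at 61.4 and 55.9 FPKM in Set ROX, against 43.6 and 54.7 FPKM in Set NT, and at 6.21 and 6.75 FPKM in Root ROX, against 12.9 and 13.9 FPKM in Root NT. Across 11 alternatives the difference ran from 1.04 to 1.36, with adjusted p-values of 0.00127 to 0.0181. The overlapping noncoding locus Os04g0233851 had ROX over NT ratios of 1.26 in Set and 0.461 in Root libraries. The column names do not give the line, so a difference between sets cannot be told apart from one between lines.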

How the results depend on the processing

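Within either library set no alternative turned the direction of a member, and sums over transcripts gave the values of the gene table. Quantile normalization moved the median difference of the members from 0.54 to 0.48 in the Root and from 0.55 to 0.40 in the Set libraries. For Os02g0666200, the most abundant member, the difference went from 0.31 to 0.18 in the Root and from 0.65 to 0.36 in the Set libraries. Os07g0448200 fell under a minimum mean FPKM of 5 in the Root libraries. Over all 8 libraries 45 genes were called, against 23 at a minimum mean FPKM of 5, 0 with averaged pairs, 1848 with the library set as a covariate, 274 with the replicate block and 29 to 35 with each library left out in turn. Called members numbered 0, but 5 with the covariate and 2 with the replicate block (Os04g0521100 and Os07g0448100), and the members with a positive difference numbered 8, or 4 to 9 with a library left out. In the Set libraries 324 genes were called, against 123 at a minimum mean FPKM of 5, 191 with no filter, 2032 with 4 group means and 1 spread, 563 with the replicate block and 52 to 141 with a library left out, where the lone library of an arm is assumed to vary like the others. The shared spread called 2 members (Os02g0823100 and Os07g0448100) in place of 0. For the interaction, 5627 genes were called, or 2539 to 6135 with a library left out, with 1 member called, 2 under quantile normalization and 1 to 3 with a library left out. Its members with a positive difference numbered 5, or 2 to 7.

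Leaving out a library turned directions over all 8 libraries, where the sets weigh unequally: the difference ran from -0.033 to 1.06 for Os07g0448800, from -0.19 to 1.002 for Os02g0629200, from -0.056 to 1.40 for Os04g0521100, from -0.19 to 1.14 for Os07g0448200 and from -0.87 to 0.17 for Os04g0233400. The interaction turned as well, at -0.34 to 0.12 for Os07g0448800, -0.034 to 0.37 for Os02g0629200, -0.17 to 0.31 for Os04g0521100, -0.33 to 0.15 for Os07g0448100 and -0.067 to 0.45 for Os07g0448200, the last also at -0.048 with a pseudocount of 0.1. The replicate numbers were not taken as pairing, since no label says what they mark and the correlation of same-numbered deviations came to 0.02 for Root libraries. It was 0.26 for Set libraries, where number 1 was below number 2 in both ROX and NT for 8 of the 9 members. The replicate block there gave 7 members an unadjusted p under 0.05 (limma) in place of 5, Os02g0666200 among them (95% interval 0.15 to 1.15). The share of all genes at that limit was not computed with the block. At an adjusted p under 0.05 the block raised the genes called in the Set libraries from 324 to 563. At an adjusted p under 0.05 the replicate block changed no call of a member within a set, with 13260 genes called in the Root libraries against 13235 without it. With 2 libraries a group that may be technical repeats, the Root p-values may be too small, and the lines could not be compared.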
